A study of Saccharomyces cerevisiae with 78 samples.

Results

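The genes described here are 60 yeast ribosome biogenesis factors, chosen by their locus tags from the nucleolar proteins that build the 2 ribosomal subunits. A count was available for 57 of them among 5229 gene rows, and UTP14, DBP2 and NOG2 were not analysed here. The RNA came from BY4742, a MAT alpha haploid laboratory strain of Saccharomyces cerevisiae. Each of 25 clones was a transformant with 1 fusion gene, and the clones are named by the codes in their labels. They were compared with BY4742 that held the empty plasmid p416-GAL1, which has the galactose-driven GAL1 promoter. All 26 groups grew to mid-logarithmic phase in synthetic galactose medium lacking uracil, so the galactose response and the plasmid selection were shared by the clones and the control. Every group had 3 biological replicates, which gives 78 libraries of polyadenylated RNA. The series' design text speaks of 22 clones and the sample labels hold 25, all of which were used.

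The labels raise 3 points that touch the results. The library names place replicate 3 of every group in a resubmitted set and replicates 1 and 2 in a first set, so set and replicate number coincide. The library name of control replicate 3 carries PP2061 where those of control replicates 1 and 2 carry p416-GAL1. The names of replicates 1 and 2 of M492-E01 carry another code, M585-B08. Which genes make up each fusion is not in the labels, so reads from a fused part of a gene could count towards that gene.

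Ribosome biogenesis begins in the nucleolus, where RNA polymerase I makes a long precursor RNA. The small-subunit processome, with its UTP-A, UTP-B and UTP-C subcomplexes, the U3 box C/D particle and the Mpp10 complex, folds and cuts the part that becomes the small-subunit RNA. Box C/D and box H/ACA particles guide methylation and pseudouridylation of the precursor, a set of helicases, Brix-domain proteins and scaffolds assembles the early large subunit, and GTPases and export factors take the particles towards the cytoplasm. In yeast the genes of these factors are known to be transcribed together according to growth conditions, and 2 promoter motifs recur in front of them. These are PAC, bound by the repressors Dot6 and Tod6, and RRPE, bound by Stb3.

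The promoters of 5 of these genes are printed because the results below turn on them. NSR1 (YGR159C) had the largest difference between the library sets and EBP2 (YKL172W) the smallest, HAS1 (YMR290C) had the largest fall in the clones with lower levels, DRS1 (YLL008W) followed the mean of the other genes most closely over the groups, and UTP22 (YGR090W) was the only one of the 60 with neither motif. Each sequence runs 5′ to 3′ on the strand of the gene, with 250 bases before the start codon and 50 from it, read from the RefSeq genome of build R64. Capitals mark the PAC core GATGAG and the RRPE core AAAAATTTT on either strand, so that CTCATC and AAAATTTTT are the same motifs read on the opposite strand, and GATGAGATGAG holds 2 overlapping PAC cores.
NSR1 (chrVII:807607-807906, minus strand): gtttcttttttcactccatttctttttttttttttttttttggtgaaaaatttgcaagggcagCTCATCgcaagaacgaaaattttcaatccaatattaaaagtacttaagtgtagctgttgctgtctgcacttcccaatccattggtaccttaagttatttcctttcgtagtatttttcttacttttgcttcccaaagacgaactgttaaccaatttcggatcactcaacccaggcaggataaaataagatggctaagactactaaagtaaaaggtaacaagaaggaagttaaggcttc
HAS1 (chrXIII:851542-851841, minus strand): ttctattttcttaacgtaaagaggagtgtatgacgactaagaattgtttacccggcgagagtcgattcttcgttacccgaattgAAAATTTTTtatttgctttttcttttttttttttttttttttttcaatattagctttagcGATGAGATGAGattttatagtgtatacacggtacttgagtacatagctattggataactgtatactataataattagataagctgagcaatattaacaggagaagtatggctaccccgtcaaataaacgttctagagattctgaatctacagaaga
DRS1 (chrXII:131479-131778, plus strand): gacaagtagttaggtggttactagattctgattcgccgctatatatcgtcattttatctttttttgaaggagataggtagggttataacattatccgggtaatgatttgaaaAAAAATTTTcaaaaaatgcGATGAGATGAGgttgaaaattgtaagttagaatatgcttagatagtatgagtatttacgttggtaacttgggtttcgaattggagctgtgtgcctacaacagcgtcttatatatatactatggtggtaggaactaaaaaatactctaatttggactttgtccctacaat
EBP2 (chrXI:125509-125808, plus strand): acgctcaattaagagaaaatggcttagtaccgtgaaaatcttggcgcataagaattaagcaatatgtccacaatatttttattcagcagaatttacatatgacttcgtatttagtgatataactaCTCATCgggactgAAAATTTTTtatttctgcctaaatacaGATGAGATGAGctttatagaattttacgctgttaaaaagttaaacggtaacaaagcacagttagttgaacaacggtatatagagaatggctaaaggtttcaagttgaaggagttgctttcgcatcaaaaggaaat
UTP22 (chrVII:662108-662407, plus strand): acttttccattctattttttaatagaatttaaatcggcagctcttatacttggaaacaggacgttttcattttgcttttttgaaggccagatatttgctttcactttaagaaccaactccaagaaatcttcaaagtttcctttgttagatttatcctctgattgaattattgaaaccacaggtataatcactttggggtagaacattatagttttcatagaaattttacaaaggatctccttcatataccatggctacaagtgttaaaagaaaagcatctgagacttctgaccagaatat

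The PAC core stood in the 300-base promoter window of 57 of the 60 genes (95%) and in 1223 of 6020 protein-coding promoters (20.3%). The RRPE core stood in 44 of the 60 (73.3%) and in 419 of all promoters (6.96%). Both were in 42 of the 60 (70%), against 3.57% of all promoters. UTP15 and SPB1 had the RRPE core alone. Among 86 other ribosome biogenesis genes 89.5% held the PAC core and 57% the RRPE core, among 20 RNA polymerase I and III genes 85% and 60%, and among 89 cytosolic ribosomal protein genes 10.1% and 5.62%. Of 87 PAC matches 84 lay before the start codon, at a median of 120 bases, and 3 after it, among them the only PAC core of UTP4, so that 56 of the 60 genes held one before the start codon. The 63 RRPE matches all lay before it, at a median of 141 bases. A match describes the letters of the window and does not show binding, and the absence of one says only that these letters are not in the window.

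Total counts per library ran from 10773809 to 18981572, with a median of 14019225. The 57 genes took between 41848 and 185683 counts per library, with a median of 67525.5, which was 0.349% to 1.33% of the gene counts. Of 4 genes that alpha cells express, MF(ALPHA)1 stood at 207 to 865 CPM (gene counts scaled to a common library size by TMM), STE3 at 126 to 282, SAG1 at 75.7 to 214 and MF(ALPHA)2 at 15.0 to 55.4 CPM in the 78 libraries. Of 3 genes that a cells express, STE6 stood at 46.2 to 69.1, STE2 at 15.8 to 27.0 and BAR1 at 8.38 to 14.6 CPM. The 3 highest alpha genes lay above all a genes in every library, while MF(ALPHA)2 lay within their range. In bulk RNA a lower level cannot be told apart into fewer cells of one state and less RNA in each cell.

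Levels were compared between genes in the control as CPM per kilobase of coding length. The 57 genes spanned a 27.7-fold range of mean levels, with a median of 48.3 against 56.5 for all genes, and 21 of them lay above the median of all genes. The modification particles were highest. NOP1, the methyltransferase fibrillarin of the box C/D particles, stood at 335 and 347 CPM per kilobase in control replicates 1 and 2 and at 814 in replicate 3. The box H/ACA proteins followed, with GAR1 at 245, 226 and 522, NHP2 at 213, 195 and 294 and the pseudouridine synthase gene CBF5 at 157, 161 and 338 in control replicates 1, 2 and 3. NSR1, the yeast nucleolin, stood at 88.1 and 86.9 CPM per kilobase in replicates 1 and 2 and at 523 in replicate 3. Replicate 3 was above the other two for all 5 of these genes, by the most for NSR1. Over the 3 replicates the ranges of GAR1, NHP2, NSR1 and CBF5 overlap, so their order does not exceed the spread.

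The lowest levels per kilobase belonged to small-subunit scaffold genes. UTP20, a very large scaffold protein, stood at 12.1, 12.6 and 29.2 CPM per kilobase in control replicates 1, 2 and 3, UTP6 of the UTP-B complex at 17.2, 14.7 and 26.5, and SOF1 at 21.6, 21.1 and 29.3. UTP15 of UTP-A (21.8, 23.0 and 32.1) and UTP13 of UTP-B (19.1, 20.2 and 38.5) completed the lowest 5. In replicates 1 and 2 UTP20 lay below the other four, while the 3-replicate ranges of the 5 overlap. By role the median level was 234 CPM per kilobase for the 3 box H/ACA genes, 151 for the 4 U3 box C/D genes, 76.1 for the 3 GTPase and export genes, 55.2 for the 20 early large-subunit genes and 50.6 for the 3 Mpp10-complex genes. It was 36.2 for the 11 other small-subunit genes, 34.9 for UTP22, 31.2 for the 6 UTP-A genes and 26.7 for the 6 UTP-B genes. Within the U3 box C/D group the range was wide, since RRP9, the protein specific to U3, stood at 34.1 ± 2.5 CPM per kilobase and NOP1 at 499 ± 273 (SD, n = 3 each).

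**Figure D1:**
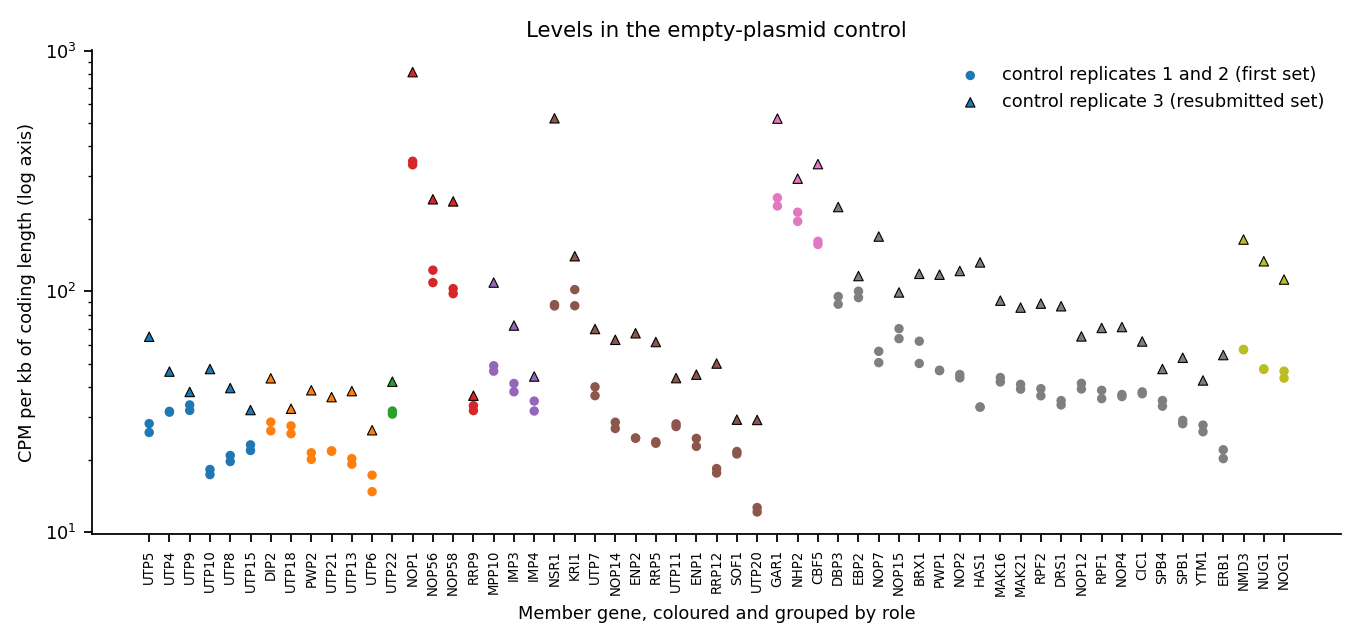
Levels of the 57 genes in the empty-plasmid control, in CPM per kilobase of coding length on a log axis, grouped and coloured by role, with circles for replicates 1 and 2 of the first set and triangles for replicate 3 of the resubmitted set. The triangles lie above the circles for every gene, by the most for NSR1 (523 against 88.1 and 86.9) and HAS1 (132 against 33.1 and 33.0).

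All 57 genes were higher in the resubmitted set than in the first set (edgeR quasi-likelihood test, Benjamini-Hochberg adjusted p under 0.05), with log2 fold changes from 0.12 to 1.71 and a median of 0.79. Of all genes tested 84.6% were called in this comparison, 41.4% higher and 43.2% lower, with a median of -0.01. The set therefore touched most of the transcriptome, and the 57 genes differed from it in all lying on the higher side. The test treats the libraries of a set as independent. Its standard errors and p-values measure the spread between libraries and not the spread between sets, which were not replicated. Whether culture, RNA extraction or library preparation differed between the sets is not given in the labels, and what the difference comes from was not tested.

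NSR1 ranged from 232 to 846 CPM with a median of 376 in the 26 resubmitted libraries, against 65.5 to 332 CPM with a median of 121 in the 52 first-set libraries (log2 fold change 1.71, SE 0.0824, adjusted p = 1.22e-26). HAS1, a DEAD-box helicase that acts on both subunits, ranged from 48.6 to 239 CPM (median 121) in the resubmitted set and from 31.5 to 68.9 CPM (median 50.2) in the first set (log2 fold change 1.34, SE 0.0881, adjusted p = 9.18e-21). Both genes overlap between the sets, because some resubmitted libraries lay within the range of the first set. NUG1, a GTPase of the large subunit, rose by 1.17 on the log2 scale (SE 0.0705), RRP12, an export factor of HEAT repeats, by 1.14 (SE 0.0635) and NOP2, a methyltransferase of the large-subunit RNA, by 1.13 (SE 0.0459), and 11 of the 57 genes rose by more than 1.

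At the other end EBP2, an early large-subunit factor, ranged from 105 to 203 CPM (median 136) in the resubmitted set and from 98.2 to 156 CPM (median 125) in the first set (log2 fold change 0.12, SE 0.0263, adjusted p = 2.95e-05). UTP18 of UTP-B rose by 0.23 (SE 0.0263), KRI1 of the small subunit by 0.30 (SE 0.0390), NHP2 by 0.31 (SE 0.0429) and UTP9 of UTP-A by 0.36 (SE 0.0299) on the log2 scale. The promoters printed above show that EBP2, with the smallest difference, holds both motifs, and that NSR1, with the largest, holds a single PAC core. UTP22, whose casein kinase-associated complex is UTP-C, was the only one of the 57 whose 26 resubmitted values all lay above its 52 first-set values, at 134 to 184 CPM against 88.8 to 122 CPM, a separation that 1.13% of all genes showed. Its rise of 0.52 on the log2 scale (SE 0.0159, adjusted p = 1.51e-35) was below the median of the 57.

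By role the median log2 difference between the sets was 1.03 for the GTPase and export genes, 0.86 for the U3 box C/D genes, 0.81 for the other small-subunit genes, 0.79 for the early large-subunit genes, 0.74 for UTP-B, 0.69 for UTP-A, 0.69 for box H/ACA and 0.66 for the Mpp10 complex. The roles overlap widely, as both extremes of the small-subunit group (KRI1 and NSR1) and of the large-subunit group (EBP2 and HAS1) show. Among genes outside the list, 77 of 83 other ribosome biogenesis genes were higher in the resubmitted set and 4 lower, with a median of 0.53. Of 20 RNA polymerase I and III genes 15 were higher and 3 lower (median 0.45), and of 64 count rows of cytosolic ribosomal protein genes, many of which join 2 paralogs, 62 were higher and none lower (median 0.58). Of 22 general stress genes 3 were higher and 13 lower, with a median of -0.18.

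**Figure D2:**
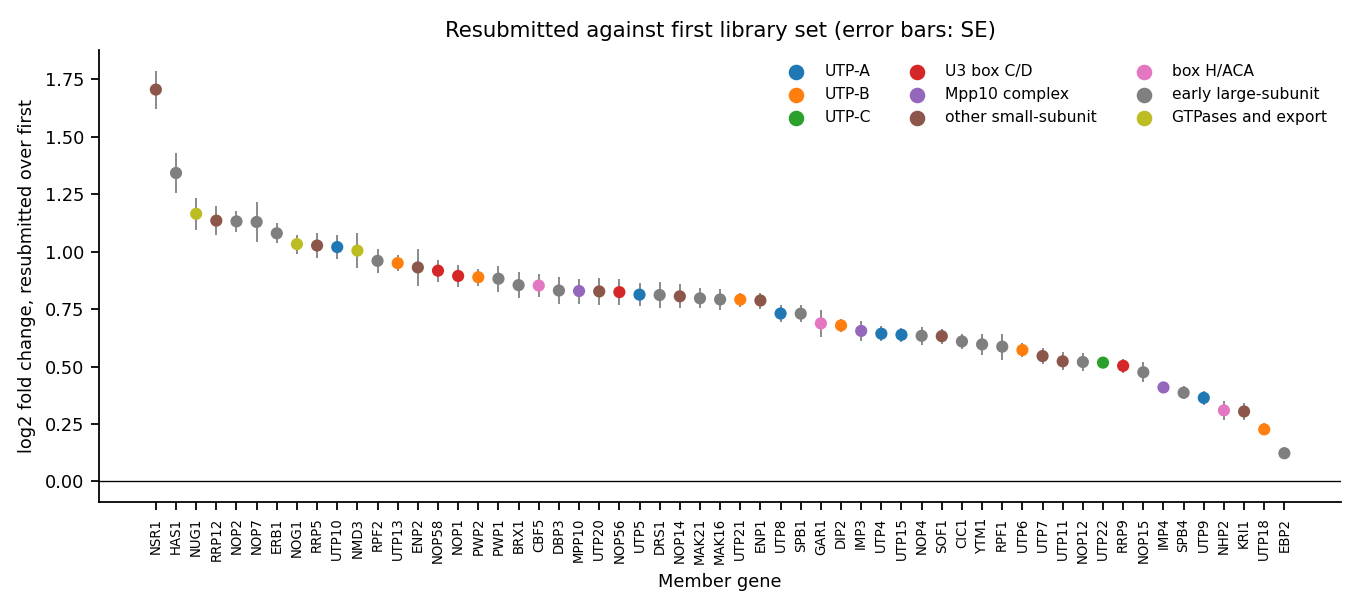
Log2 fold change of the resubmitted over the first library set for each of the 57 genes, in order of size and coloured by role, with bars for the standard error of the edgeR fit. Values run from 1.71 for NSR1 to 0.12 for EBP2, all above 0, and the roles are mixed along the order.

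Within the resubmitted set the plate row, which begins each library name, also went with the level. The 57 genes took 0.489% to 0.707% of the gene counts in the 12 resubmitted libraries of row A. They took 0.656% to 1.33% in the 12 of row B and 0.968% and 1.01% in the 2 of row C, against 0.349% to 0.587% in the 52 first-set libraries. Rows A and B overlap, since M491-E09 of row B, at 0.656%, lay below the highest libraries of row A. Per library, the mean over the genes of log2(CPM + 1), centred on the control, had a median of 0.10 in resubmitted row A and of 0.66 in resubmitted rows B and C, a difference of -0.56. In the first set the clones of resubmitted row A differed from the other clones by -0.01. The same difference in the resubmitted set was -0.45 for the other ribosome biogenesis genes, -0.39 for the polymerase genes, -0.25 for the ribosomal protein genes and 0.20 for the stress genes. In the first set the same lists, in that order, differed by 0.01, -0.04, 0.20 and 0.08 between these clones. Both resubmitted medians lay above those of the same clones in the first set, which were -0.33 for the row A clones and -0.32 for the others. This did not hold for every library, since resubmitted M491-C07 of row A, at 0.04, lay below its first-set replicate 2, at 0.07. The control was in row C of the resubmitted plate, and in row E of the first-set plate, with M497-F10 as the only clone beside it in both sets. The other 24 clones stood in other rows than the control in both sets, so each of their comparisons is also one between rows, and clone and row cannot be told apart in it.

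**Figure D3:**
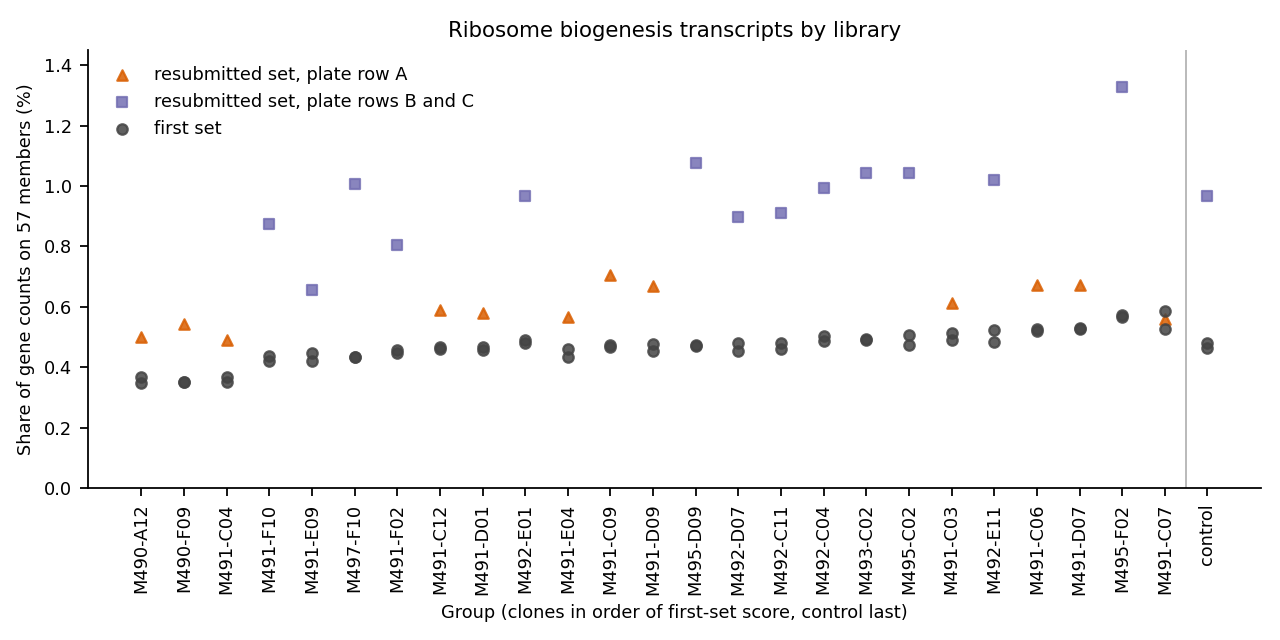
Share of gene counts on the 57 genes in each of the 78 libraries (percent, axis from 0), by group, with triangles for resubmitted row A, squares for resubmitted rows B and C and circles for the first set, clones in order of their first-set mean and the control at the right. Circles lie between 0.349% and 0.587%, triangles between 0.489% and 0.707% and squares between 0.656% and 1.33%, and within the circles M490-A12, M490-F09 and M491-C04 are lowest.

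For this reason each clone is given under 3 fits: with a term for the library set, with plate rows as separate batches (first set, resubmitted row A, resubmitted rows B and C), and with the first set alone, where 2 clone libraries meet 2 control libraries. Among the 26 groups 55 of the 57 genes differed in some way under the set term, while 83.2% of all genes did. GAR1 (adjusted p = 0.211) and NOP7 (adjusted p = 0.0866), a large-subunit scaffold, did not pass. Against the control, 4 clones had 10 or more of the 57 genes called: M490-A12 (22.4% of all genes called), M490-F09 (16.1%), M491-C04 (15.0%) and M495-F02 (50.3%). Another 7 clones had 1 to 4 of them called, namely M491-C07 (24.1%), M491-F10 (20.4%), M491-C06 (20.1%), M491-D01 (10.8%), M491-C09 (7.71%), M491-E04 (7.64%) and M492-E11 (0.883%). None of the 57 was called in the other 14 clones. Of these, M495-D09 had 13.4% of all genes called, M491-D09 13.2%, M491-C03 12.9%, M491-C12 7.31%, M492-C04 6.39%, M491-D07 6.22%, M491-E09 3.93%, M492-E01 3.4%, M495-C02 1.57%, M497-F10 1.48%, M491-F02 0.46%, M493-C02 0.0767%, M492-C11 0.0384% and M492-D07 0.0192%. At an unadjusted p of 0.05 those 14 clones had 0 to 11 of the genes, and DESeq2 called 1 gene, in M491-D09.

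M490-A12, M490-F09 and M491-C04 had lower levels of most of these transcripts than the control. In M490-A12, 45 of 57 were lower and none higher, where 10.5% of all genes were lower and 11.9% higher, with a median log2 fold change of -0.55. In M490-F09, 40 were lower and none higher, where 7.46% of all genes were lower and 8.6% higher (median -0.52), and in M491-C04, 33 were lower and none higher, where 6.93% of all genes were lower and 8.12% higher (median -0.54). The median of all genes was 0.00 in each. With plate rows as separate batches the counts were 45, 36 and 36 lower in M490-A12, M490-F09 and M491-C04 and the medians -0.37, -0.32 and -0.32, beside 10.7%, 7.83% and 7.81% of all genes. The first set by itself gave 53, 52 and 45 lower with medians of -0.44, -0.41 and -0.34, beside 17.2%, 14.5% and 15.5% of all genes. In the first set both clone values lay below both control values for 55 genes in M490-A12, 56 in M490-F09 and 54 in M491-C04, beside 31.9%, 28.9% and 32.0% of all genes. Without a set term 1, 0 and 0 genes were called in these clones, and without control replicate 3, whose library name differs, 20, 12 and 13 genes were lower. M490-F09 had 24 genes without its own replicate 1 and 24 without its replicate 3, and M491-C04 had 16 without its replicate 3. The share of all genes is not given for the counts without a set term or without a replicate. By themselves those counts are no result about the 57 genes. The clone difference itself differed between the sets for 32, 31 and 35 of the 57 genes in M490-A12, M490-F09 and M491-C04, beside 19.5%, 17.3% and 28.9% of all genes.

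The lower levels were spread over the roles in M490-A12. Under the set term, 5 of 6 UTP-A genes were lower (median -0.61), 5 of 6 UTP-B genes (-0.55), 2 of 4 U3 box C/D genes (-0.45), 2 of 3 Mpp10-complex genes (-0.43), 7 of 11 other small-subunit genes (-0.62), 2 of 3 box H/ACA genes (-0.48), 19 of 20 early large-subunit genes (-0.58) and 2 of 3 GTPase and export genes (-0.64). In M490-F09 the early large-subunit genes led with 18 of 20 lower, and no Mpp10-complex gene passed. In M491-C04, 14 of 20 early large-subunit genes and 6 of 11 other small-subunit genes were lower, and none of 3 Mpp10-complex and none of 3 box H/ACA genes passed. With plate rows as separate batches 2 of the 3 box H/ACA genes were lower in M491-C04.

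Among the UTP-A genes UTP5 had 31.3, 32.4 and 57.9 CPM in M490-A12 replicates 1, 2 and 3, against 50.1, 54.5 and 125 CPM in control replicates 1, 2 and 3. Both groups were higher in replicate 3, and within each set the clone lay below the control. The fitted change was -0.87 on the log2 scale (SE 0.182, adjusted p = 0.000422), and -0.68 (SE 0.146) with plate rows as separate batches. M491-D07, also of resubmitted row A, had 54.1, 58.3 and 75.5 CPM of UTP5, and lay below the control in the resubmitted set alone. PWP2, a scaffold of UTP-B, had 30.6, 36.0 and 66.9 CPM in M490-A12, against 59.2, 55.5 and 108 CPM in the control (log2 fold change -0.75, SE 0.129, adjusted p = 3.35e-05), with first-set and resubmitted differences of -0.77 and -0.68. UTP22, the UTP-C gene without either motif, had 97.5, 93.2 and 145 CPM in M490-A12, against 118, 115 and 156 CPM in the control, and its change of -0.23 (SE 0.0552, adjusted p = 0.00223) was smaller than that of the others named. In M491-C04 UTP22 had 92.1, 88.8 and 134 CPM (log2 fold change -0.32, SE 0.0556, adjusted p = 4.9e-05).

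Of the other small-subunit genes ENP2, an essential nucleolar WD-repeat protein, had 37.1, 37.4 and 51.8 CPM in M490-A12, 35.2, 34.5 and 53.9 CPM in M490-F09 and 38.5, 39.7 and 47.5 CPM in M491-C04, against 52.1, 52.2 and 142 CPM in the control. All 3 values of M490-A12 and of M491-C04 lay below all 3 control values, while replicate 3 of M490-F09 lay above control replicates 1 and 2. The log2 fold changes were -0.84 (SE 0.282, adjusted p = 0.0258) in M490-A12, -0.88 (SE 0.281, adjusted p = 0.0248) in M490-F09 and -0.82 (SE 0.285, adjusted p = 0.0415) in M491-C04, and -0.45, -0.49 and -0.45 with plate rows as separate batches. NOP14, which joins the head of the small subunit, had 43.2, 43.9 and 68.8 CPM in M490-A12, 44.3, 43.5 and 66.9 CPM in M490-F09 and 43.8, 47.6 and 62.9 CPM in M491-C04, against 65.5, 69.5 and 153 CPM in the control. Its fold changes of -0.82 (SE 0.185), -0.82 (SE 0.184) and -0.81 (SE 0.186) in M490-A12, M490-F09 and M491-C04 were nearly equal, at adjusted p = 0.000896, 0.00143 and 0.00161.

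NSR1 had 65.5, 78.8 and 242 CPM in M490-A12 and 75.2, 78.1 and 279 CPM in M490-F09, against 109.6, 108 and 652 CPM in the control. The clones lay below the control within each set, and the distance between the sets was larger than that between the strains. In the resubmitted set this was not particular to these clones. M491-D07, also of resubmitted row A, had 159, 159 and 302 CPM of NSR1 in replicates 1, 2 and 3. It lay above the control in the first set and below it in the resubmitted set. The log2 fold changes were -0.94 (SE 0.292, adjusted p = 0.015) in M490-A12 and -0.81 (SE 0.289, adjusted p = 0.0448) in M490-F09, and the second did not pass once plate rows were separate batches (-0.42, with an adjusted p of 0.161). In M491-C04 NSR1 had 102, 98.3 and 232 CPM and did not pass (-0.64, adjusted p = 0.129).

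NHP2, a core protein of the box H/ACA particles, had 78.4, 87.9 and 92.8 CPM in M490-A12 and 85.8, 84.9 and 92.9 CPM in M490-F09, against 111, 102 and 153 CPM in the control. Neither clone overlapped the control. The log2 fold changes were -0.48 (SE 0.148, adjusted p = 0.0141) in M490-A12 and -0.45 (SE 0.147, adjusted p = 0.0275) in M490-F09.

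The early large-subunit genes held the deepest fall. HAS1 had 31.5, 36.3 and 55.5 CPM in M490-A12, 36.0, 34.5 and 61.9 CPM in M490-F09 and 36.7, 38.5 and 48.6 CPM in M491-C04, against 50.2, 50.1 and 200 CPM in the control. The 3 values of M491-C04 lay below all control values, and replicate 3 of M490-A12 and of M490-F09 lay between the control libraries. The log2 fold changes were -1.05 (SE 0.317, adjusted p = 0.0131), -0.95 (SE 0.312, adjusted p = 0.0305) and -0.98 (SE 0.319, adjusted p = 0.0283) in M490-A12, M490-F09 and M491-C04. Much of this size came from replicate 3, since the first set alone gave -0.57 (SE 0.099), -0.51 (SE 0.0949) and -0.41 (SE 0.0984). DRS1, a helicase of the large subunit, had 51.6, 52.2 and 80.7 CPM in M490-A12, 52.2, 54.1 and 89.1 CPM in M490-F09 and 54.8, 54.5 and 75.2 CPM in M491-C04, against 79.4, 76.2 and 196 CPM in the control, with log2 fold changes of -0.84 (SE 0.192), -0.77 (SE 0.191) and -0.82 (SE 0.194) at adjusted p = 0.00106, 0.00395 and 0.00212. Within the first set both clone values lay below both control values in each clone.

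RPF1, a Brix-domain protein, had 23.3, 25.8 and 28.1 CPM in M490-A12 and 26.8, 24.0 and 30.7 CPM in M490-F09, against 31.8, 34.4 and 62.5 CPM in the control. All 3 values of each clone lay below the control, with log2 fold changes of -0.69 (SE 0.2, adjusted p = 0.0101) and -0.60 (SE 0.197, adjusted p = 0.0295). EBP2 (98.2, 103 and 105 CPM in M490-A12, against 129, 121 and 149 CPM in the control) and the helicase gene SPB4 (50.5, 55.9 and 59.9 CPM, against 60.7, 64.1 and 86.6 CPM) also did not overlap, with smaller changes of -0.37 (SE 0.0901, adjusted p = 0.00195) and -0.33 (SE 0.101, adjusted p = 0.0142). ERB1, which binds NOP7 and YTM1, had 38.8, 33.3 and 64.2 CPM in M491-C04, against 48.9, 53.2 and 132 CPM in the control (log2 fold change -0.70, SE 0.155, adjusted p = 0.00126). NMD3, the export adapter of the large subunit, had 68.5, 63.1 and 98.7 CPM in M490-F09 and 67.8, 68.2 and 86.0 CPM in M491-C04, against 89.3, 89.1 and 255 CPM in the control. Its changes were -0.77 (SE 0.267, adjusted p = 0.0403) in M490-F09 and -0.79 (SE 0.27, adjusted p = 0.0382) in M491-C04, and -0.39 and -0.42 with plate rows as separate batches.

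Not every gene passed. GAR1, NOP56, KRI1, NOP7, NUG1, MPP10, UTP9, RRP9, UTP11 and UTP18 were not called under the set term in M490-A12, M490-F09 or M491-C04, although in the first set all 57 genes averaged below the control in each of the 3 clones. NOP56 of the box C/D core had 146, 167 and 185 CPM in M490-A12, against 185, 165 and 365 CPM in the control, and its change of -0.42 (SE 0.203) had an adjusted p of 0.132. In this gene the first-set values overlap.

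Genes of neighbouring pathways were counted in the same 3 clones. Of all genes 10.5%, 7.46% and 6.93% were lower in M490-A12, M490-F09 and M491-C04, and 11.9%, 8.6% and 8.12% higher. In M490-A12, 60 of 83 other ribosome biogenesis genes were lower (median -0.40) and 17 of 20 RNA polymerase I and III genes (-0.41), while 1 of 64 ribosomal protein rows was lower (-0.17) and 7 of 22 stress genes were higher (0.20). In M490-F09 these counts were 39 of 83 (-0.38), 14 of 20 (-0.34) and 1 of 64 (-0.14) lower, and 6 of 22 stress genes higher (0.08). In M491-C04 they were 28 of 83 (-0.34), 12 of 20 (-0.36) and 6 of 64 (-0.27) lower, and 11 of 22 stress genes higher (0.32). Of 4 alpha-specific genes 3, 2 and 4 were also lower in M490-A12, M490-F09 and M491-C04, and none of 4 galactose genes was called in any of them. The share of counts on the pooled construct sequences was 2.27% ± 0.393 in M490-A12, 2.47% ± 0.36 in M490-F09 and 0.831% ± 0.0716 in M491-C04, against 0.412% ± 0.0665 in the control (SD, n = 3 each). The part of these differences in the lower levels was not tested.

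**Figure D4:**
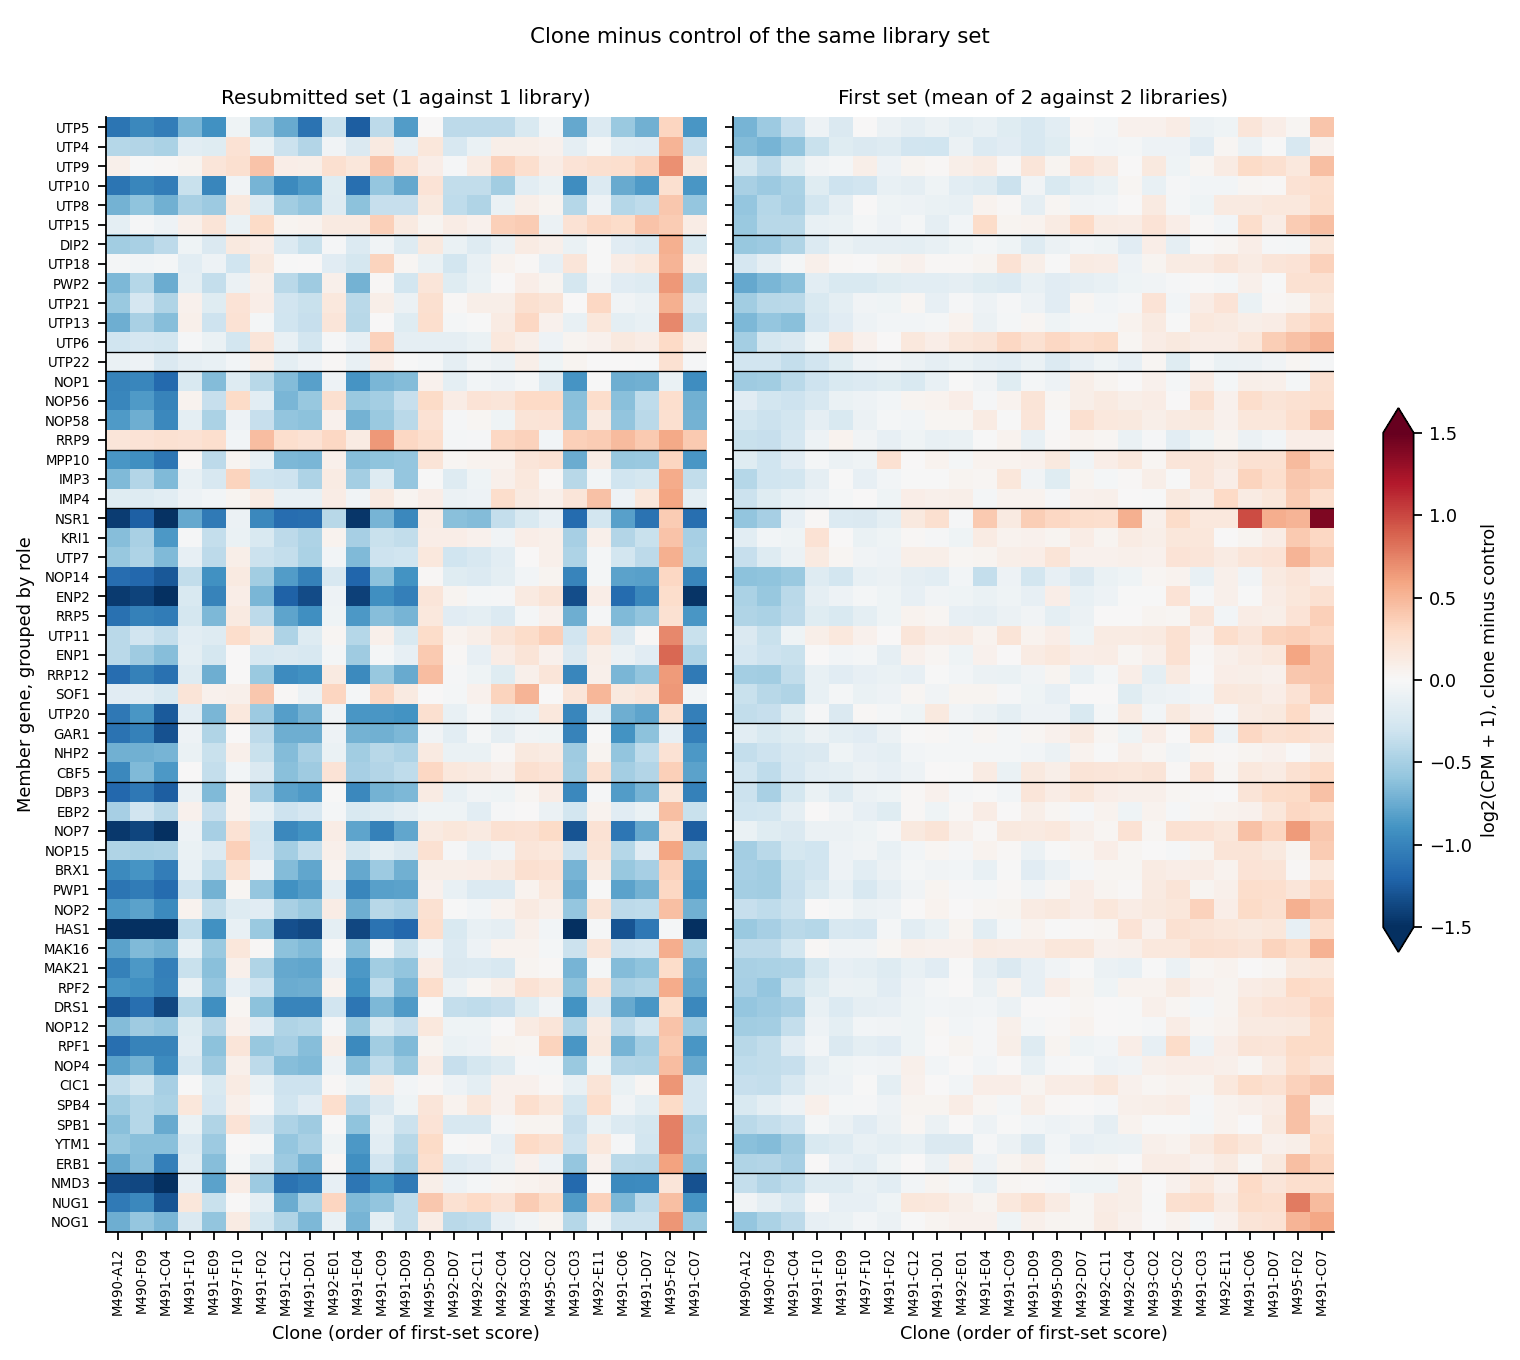
Difference in log2(CPM + 1) between each clone and the control of the same library set for the 57 genes (rows, grouped by role) and 25 clones (columns, in order of their first-set mean), with the resubmitted set at the left (1 library against 1) and the first set at the right (means of 2 against 2), colours ending at 1.5 in both directions. The 3 columns at the left of each panel, M490-A12, M490-F09 and M491-C04, are blue over most genes in both sets, M495-F02 is mostly red in both, and M491-C07 is red in the first set and mostly blue in the resubmitted set, where other clones of row A are blue as well.

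M495-F02 had higher levels. Of the 57 genes 27 were higher than in the control and none lower under the set term, with a median log2 fold change of 0.34, where 25.6% of all genes were higher and 24.7% lower. With plate rows as separate batches 42 were higher (28.6% of all genes) and with the first set alone 42 were higher and 1 lower, beside 32.0% and 32.2% of all genes, with medians of 0.33 and 0.25. In the first set both clone values lay above both control values for 47 genes, beside 40.6% of all genes. The share of the 57 genes on the higher side exceeded the background in each fit, but M495-F02 also had 50.3% of all genes called, more than any other clone. The clone difference itself differed between the sets for 18 genes, beside 32.6% of all genes. Without M495-F02 replicate 3 the count was 14, and without a set term it was 1, and the share of all genes is not given for either.

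Among small-subunit genes ENP1, needed for the export of the small subunit, had 51.4, 52.7 and 119 CPM in M495-F02, against 33.0, 35.6 and 65.4 CPM in the control. The clone was above the control within each set, at a fitted log2 difference of 0.71 (SE 0.119, adjusted p = 1.32e-06). UTP11 had 24.8, 29.4 and 54.8 CPM in M495-F02 and 21.2, 20.6 and 32.8 CPM in the control, and UTP7 had 91.4, 91.2 and 168 CPM in M495-F02 and 61.4, 66.8 and 116 CPM in the control, with log2 fold changes of 0.53 (SE 0.134, adjusted p = 0.000915) and 0.52 (SE 0.117, adjusted p = 0.000172). Both are processome proteins, and in both genes the clone was the higher within each set. Of the Mpp10-complex genes 2 of 3 were higher (median 0.47).

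Of the large-subunit genes NUG1 had 128, 128 and 284 CPM in M495-F02, against 74.5, 74.0 and 208 CPM in the control (log2 fold change 0.66, SE 0.243, adjusted p = 0.0199). SPB1, a methyltransferase of the large-subunit RNA, had 96.6, 101 and 227 CPM in M495-F02, against 73.5, 71.2 and 134 CPM in the control (0.57, SE 0.126, adjusted p = 0.000125), and the GTPase gene NOG1 had 126, 123 and 346 CPM, against 84.7, 90.6 and 218 CPM (0.57, SE 0.145, adjusted p = 0.000785). In all 3 genes the clone lay above the control within each set, while the 3 clone values and the 3 control values overlap across the sets. EBP2, with 154, 156 and 203 CPM in M495-F02 against 129, 121 and 149 CPM in the control, was the only gene of the 57 called there without overlap of the 3 and 3 values (log2 fold change 0.37, SE 0.089, adjusted p = 0.000503). None of 3 box H/ACA genes passed under the set term, and of the 5 genes highest per length none did. NSR1 had 149.9, 162 and 846 CPM in M495-F02, against 109.6, 108 and 652 CPM in the control (0.45, SE 0.285, adjusted p = 0.185), above the control in both sets. NOP1 had 332, 325 and 749 CPM in M495-F02 against 330.1, 341 and 801 CPM in the control (-0.06, SE 0.17), and HAS1 had 44.3, 47.5 and 196 CPM against 50.2, 50.1 and 200 CPM (-0.07, SE 0.301). The gene lower with the first set alone was UTP4 of UTP-A, with 59.4, 65.2 and 154 CPM in M495-F02 and 73.9, 73.4 and 108 CPM in the control, below the control in the first set and above it in the resubmitted set.

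In M495-F02 45 of 83 other ribosome biogenesis genes were higher and 1 lower (median 0.36), and 5 of 20 polymerase genes were higher (0.19). Under the set term 25.6% of all genes were higher and 24.7% lower, so the count of polymerase genes was near the share of all genes. Of the ribosomal protein rows 7 of 64 were higher under the set term (0.14) and 57 of 64 with the first set alone (0.35), beside 25.6% and 32.0% of all genes. All 4 galactose genes were lower (median -0.80), as were 2 of 4 alpha-specific genes, and of the stress genes 10 were higher and 7 lower. The construct share was 0.152% ± 0.00955 in M495-F02, against 0.412% ± 0.0665 in the control (SD, n = 3 each). The part of these differences in the higher levels was not tested.

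M491-C07 depended on the library set. Under the set term 4 of 57 genes were higher, where 12.1% of all genes were, and the median was 0.00. With plate rows as separate batches 16 were higher (15.3% of all genes, median 0.16), and with the first set alone 50 were higher and none lower (26.2% of all genes, median 0.30). Both first-set values lay above both control values for 50 genes, beside 38.0% of all genes. In the resubmitted set the median difference from the control was -0.61 over the 57 genes, and 52 of them lay below it. The difference between the sets in this contrast was called for 53 of the 57 genes, beside 36.4% of all genes. NSR1 had 249.7, 332 and 297 CPM in M491-C07, against 109.6, 108 and 652 CPM in the control, so that its 3 clone values lay between the control's first-set and resubmitted values (log2 fold change 1.42, SE 0.0915, adjusted p = 3.93e-16 with the first set alone). Under the set term its change of 0.67 did not pass (SE 0.287, adjusted p = 0.0818).

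The 4 genes called in M491-C07 under the set term were UTP9 and UTP15 of UTP-A and UTP18 and UTP6 of UTP-B, named here after their values were seen. UTP9 had 73.6, 82.6 and 73.2 CPM in M491-C07, against 58.3, 55.3 and 66.0 CPM in the control (log2 fold change 0.37, SE 0.102, adjusted p = 0.00584), without overlap. The other three overlap the control. Without M491-C07 replicate 3 the count was 13, without its replicate 2 it was 0, and without control replicate 2 it was 2. No share of all genes is given beside these counts.

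**Figure D5:**
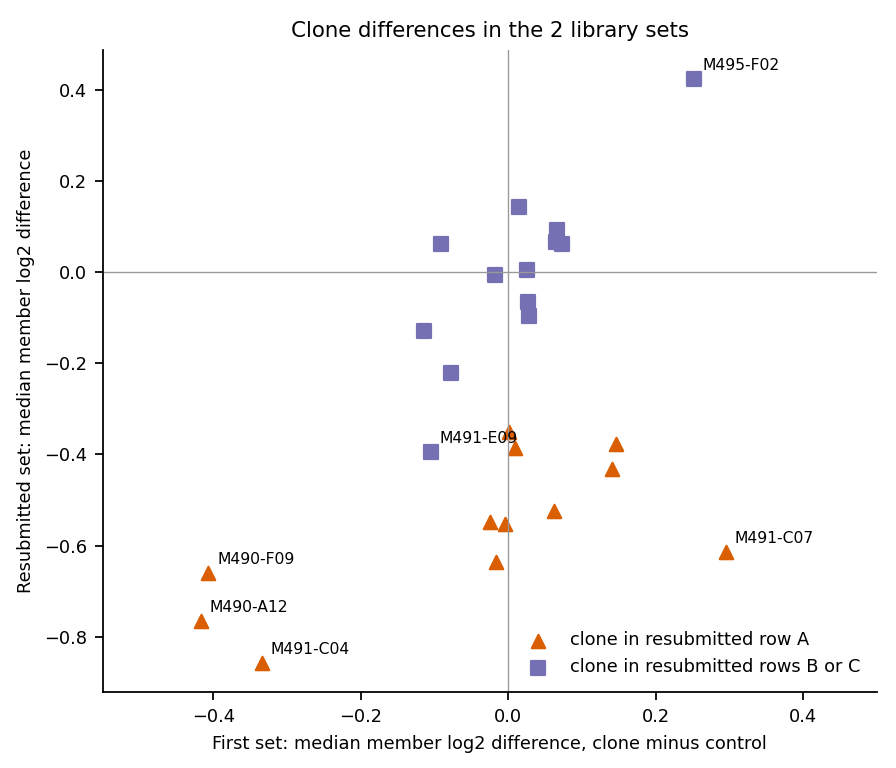
Median log2 difference from the control over the 57 genes in the resubmitted set (vertical, 1 library against 1) and in the first set (horizontal, 2 against 2) for each of the 25 clones, with triangles for clones in resubmitted row A and squares for rows B and C. M490-A12, M490-F09 and M491-C04 are low on both axes and M495-F02 is high on both, while M491-C07 stands at 0.29 on the first-set axis and at -0.61 on the resubmitted axis. On the resubmitted axis all row A clones lie below the control, from -0.86 for M491-C04 to -0.35 for M491-C09. M491-E04 stands there at -0.64, beside -0.66 for M490-F09.

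The other 20 clones had few calls under the set term. The genes called were UTP8 and UTP22 (lower) in M491-F10, UTP9 (higher) in M491-C06, UTP6 (higher) in M491-C09, IMP4 (higher) in M492-E11, UTP4 (lower) in M491-D01 and NOP14 (lower) in M491-E04, with the whole-transcriptome shares at 8.9%, 11.4%, 4.49%, 0.691%, 3.97% and 3.07% in that direction. With plate rows as separate batches M491-E09 had 13 genes lower (3.57% of all genes), M491-C06 had 8 higher (14.7%), M491-F10 had 7 lower (12.5%) and M491-D07 had 6 higher (7.08%). With the first set alone 12 clones had 10 or more genes called, while 1.5% to 64.2% of all genes were called over the 25 clones. Among them M491-D07 had 24 higher (17.1% of all genes), M491-C06 had 20 higher (23.4%) and M491-F10 had 22 lower and 1 higher (21.2% and 18.6%).

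The mean of the 25 clones was set against the control to ask what carrying a fusion gene had in common. None of the 57 genes was called with edgeR or with DESeq2, 6 had an unadjusted p under 0.05, and the median log2 fold change was -0.10, while 6.33% of all genes were called. With the first set alone 6 genes were lower and 1 higher, beside 12.4% and 13.5% of all genes. Of the 57 genes 4 were called in no clone under the set term, where 23.9% of all genes were called in none.

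Likeness among the 57 genes was described over the 26 groups of the first set. It was not computed for other genes, nor without the 3 clones with lower levels. The Pearson correlation of each gene with the mean of the others ran from 0.711 to 0.983, with a median of 0.900, over 26 groups that share plates, depth and preparation. DRS1 (0.983), PWP2 (0.970) and MAK16 (0.964), an early large-subunit protein, were the most like the rest, and KRI1 (0.711), SPB4 (0.740) and UTP22 (0.765) the least. The lowest group was M490-A12, M490-F09 or M491-C04 for 57 of 57 genes, and the highest was M491-C07 for 32 and M495-F02 for 20. The same counts were not made over all genes, so by themselves they are no result about the 57 genes. Under the set term 24.1% of all genes were called in M491-C07 and 50.3% in M495-F02. The median gene spanned 0.80 on the log2 scale between its lowest and highest group, and NSR1 spanned 1.99. Row A of the first-set plate held M490-A12, M490-F09, M491-C04 and M491-C07, so the lowest 3 and the highest group stood in 1 row. The mean over the genes was also set against the median of the other clones of the same set and row. Over first-set libraries it was -0.49, -0.48 and -0.39 for M490-A12, M490-F09 and M491-C04, and over resubmitted libraries -0.23, -0.14 and -0.28. In the resubmitted set such values were not particular to these clones, since M491-E09 and M491-F02 of row B stood at -0.44 and -0.22.

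The promoter classes were set beside these values as a description. The median difference between the library sets was 0.81 on the log2 scale for the 39 measured genes with both motifs and 0.66 for the 15 with PAC alone, and the ranges of 0.12 to 1.34 and 0.23 to 1.71 overlap. In M490-A12, M490-F09 and M491-C04 the medians were -0.58, -0.54 and -0.55 for genes with both motifs and -0.54, -0.49 and -0.47 for those with PAC alone. UTP22, with neither, had -0.23, -0.22 and -0.32 in the same clones and 0.10 in M495-F02, where the medians were 0.28 with both motifs and 0.38 with PAC alone.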

How the data were processed

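RNA-seq of 78 yeast libraries was deposited as raw counts per gene, which the authors made with fastp 0.23.1, STAR 2.5.2b and featureCounts of Subread 1.5.2 on build R64, per the submitters' processing notes, and per the labels' protocols from polyadenylated RNA with UMI adapters. The gene rows lie on 204 contigs of another assembly, so no coordinate of the count table is given. Rows without a gene, 2.32% to 4.99% of the counts per library, were left out of library sizes and tests. The 129 rows that join several genes under 1 name were kept as deposited, and none of the 57 genes is among them. The libraries are biological replicates per the labels, and replicate number and library set coincide.

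Counts were scaled by TMM, 17 genes were removed by filterByExpr and 5212 tested with edgeR 4.0.16 in R 4.3.3 (quasi-likelihood, group plus library set, Benjamini-Hochberg, threshold 0.05, 51 residual degrees of freedom). The test was checked on simulated counts. These held no plate-row effect, no clone-by-set difference and no correlation between libraries of a replicate, so the check does not cover them. Single-library values are CPM, with differences as log2(CPM + 1). Alternatives were plate rows as batches, the first set alone, no set term, the replicate block, RLE, library totals, no filter, DESeq2 1.42.0, a pseudocount of 5 and each replicate left out. The precision of a value rests on the counts given per library, and p-values on the spread between replicates.

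Deviations from the group means correlated between groups within replicate 1 (0.217 to 0.802), replicate 2 (0.0588 to 0.822) and replicate 3 (0.248 to 0.928). The genes and lists were chosen with earlier results of these data known. Genes named per clone were the called genes with the largest change and no overlap of the 3 and 3 values. Where these were few, the called genes with the largest change and no overlap in the first set were added, a rule chosen after values were seen, as were the other genes named in the text for contrast. Genes named for level, library set and likeness were the 5 highest and lowest, the first 5 in each direction of size and the 3 most and least alike.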

Additional observations from a re-analysis of the deposited data

Results flagged for a closer look

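For 24 pairs of a named gene and a clone the difference from the control was itself different between the library sets. The test was the edgeR quasi-likelihood test of the interaction (adjusted p under 0.05, 26 residual degrees of freedom from replicates 1 and 2). Of the 24, 23 were negative. The genes were named for the size of a change that includes the resubmitted library. In the clones with lower levels that choice favoured negative values, so the count of signs is no result by itself. The number of pairs tested is not given. In M490-A12 the resubmitted minus the first log2 difference was -0.9701 for ENP2, -0.72 for RPF1, -0.3631 for NHP2, -1.281 for HAS1, -0.8319 for NSR1, -0.395 for UTP5, -0.6936 for DRS1 and -0.5205 for NOP14. In M490-F09 it was -0.6479 for RPF1, -0.4028 for NHP2, -1.186 for HAS1, -0.8195 for ENP2, -0.5738 for NOP14, -0.7139 for NSR1, -0.5841 for DRS1 and -0.9363 for NMD3. In M491-C04 it was -1.628 for HAS1, -0.8714 for DRS1, -1.168 for ENP2, -0.7219 for NOP14, -1.179 for NMD3 and -0.5313 for ERB1. In M495-F02 it was -0.3435 for NUG1 and 0.3181 for SPB1. The clones with negative values other than M495-F02 stood in resubmitted row A and the control in row C, and the resubmitted side is 1 library against 1, so row, library and clone cannot be told apart there. Without choosing genes, the interaction was called for 32, 31 and 35 of the 57 genes in M490-A12, M490-F09 and M491-C04. The shares of all genes were 19.5%, 17.3% and 28.9%. In the other clones of resubmitted row A it was called for 33 to 53, and for 1065 to 1898 of 5212 tested genes. Such calls were therefore not particular to the named clones. In M495-F02 it was called for 18 of 57, beside 32.6% of all genes.

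The counts pooled on construct sequences, which the gene comparisons do not use, were above the control in 3 of the clones described. They were 2.272% of the counts in M490-A12, 2.468% in M490-F09 and 0.8314% in M491-C04, against 0.412% ± 0.0665 in the control (SD, n = 3). In M495-F02 they were below the control, at 0.152% ± 0.00955 (SD, n = 3).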

How the results depend on the processing

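The comparison between the library sets held 57 genes under every setting but library totals (56), and 55 genes differed among the groups except without a set term (1). Without a set term the number called was 1 in M490-A12, 0 in M490-F09, M491-C04, M491-C06, M491-C07, M491-C09, M491-D01, M491-E04, M491-F10 and M492-E11, and 1 in M495-F02. With plate rows as separate batches it was 8 in M491-C06, 16 in M491-C07, 2 in M491-D01, 6 in M491-D07, 2 in M491-D09, 13 in M491-E09, 7 in M491-F10 and 42 in M495-F02. With the first set alone it was 11 in M491-C03, 20 in M491-C06, 50 in M491-C07, 7 in M491-C09, 2 in M491-C12, 5 in M491-D01, 24 in M491-D07, 12 in M491-D09, 5 in M491-E04, 13 in M491-E09, 3 in M491-F02, 23 in M491-F10, 4 in M492-C04, 2 in M492-C11, 6 in M492-D07, 1 in M493-C02, 10 in M495-C02, 8 in M495-D09, 43 in M495-F02, 5 in M497-F10 and 7 in the mean of clones. RLE gave 0 in M491-C06 and M491-C09 and 1 in M491-D09, library totals gave 0 in M491-C06, 2 in M491-C09, 5 in M491-E04 and 1 in M491-F10, and no filter and DESeq2 each gave 1 in M491-D09. DESeq2 gave 48, 44, 41 and 28 in M490-A12, M490-F09, M491-C04 and M495-F02. With the first set alone 1.5% to 64.2% of all genes were called over the clones. Most counts given for that fit stand without the share of their own clone, and by themselves are no result about the 57 genes. The share of all genes is not given for DESeq2, for the fit without a set term or for the counts with a replicate left out. Under the set term in edgeR it was 22.4%, 16.1%, 15.0% and 50.3% in the same 4 clones. The 28 of 57 in M495-F02 is therefore no result about the 57 genes by itself. The replicate block moved a count by at most 1, to 32 from 33 in M491-C04.

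Leaving out each replicate gave 20 to 46 genes in M490-A12, 12 to 41 in M490-F09, 13 to 32 in M491-C04, 0 to 1 in M491-C06, 0 to 13 in M491-C07, 0 to 1 in M491-C09, 0 to 1 in M491-D01, 0 to 2 in M491-E04, 1 to 2 in M491-F10, 0 to 1 in M492-E11, 0 to 1 in M495-D09, 14 to 32 in M495-F02, 55 among the groups and 57 between the sets, and 0 in the other comparisons. Values of single genes were counted once for each combination of named gene, clone and setting. Under another setting 30 combinations no longer passed and 218 still did. With a replicate left out 39 no longer passed and 147 still did, and none reversed. The row difference was -0.54 with a pseudocount of 5. The causes were not tested.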
